A study of Mus musculus with 9 samples.

Results

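The genes described here are 8 regulators of G protein signalling, Rgs1, Rgs2, Rgs3, Rgs10, Rgs14, Rgs16, Rgs18 and Rgs19, and 2 G protein alpha subunits, Gnai2 and Gna13. They are 10 of the 54146 genes in the deposited count table and were picked by symbol, with earlier results of the same comparison known. Their values in that comparison are therefore given as a description, without a test of their own. Polyadenylated RNA was sequenced from mouse T follicular helper (Tfh) cells, the CD4 T cells that help B cells in germinal centres, sorted from Peyer's patches as positive for CD4, CXCR5 and PD1. The first group (WT/mut, n = 5, replicates 6 to 10) is labelled Tgfbr1 WT/mut, a notation for 1 wild-type and 1 mutant allele of a receptor chain for TGF-beta, and the second (WT, n = 4, replicates 1, 3, 4 and 5) consisted of wild-type littermates. The labels give no treatment, age, sex, strain or batch, do not name the mutation, do not restrict it to a cell type, and do not say whether each library came from 1 animal, so a p-value covers only the spread between libraries.

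G protein-coupled receptors, among them the chemokine receptors that place lymphocytes in follicles, act through an alpha subunit that binds GTP and a beta-gamma pair. RGS proteins speed the hydrolysis of that GTP and so end the signal. In T and B cells Gnai2 encodes the main alpha subunit behind chemokine receptors, while Gna13 encodes the one through which receptors such as S1pr2 hold cells inside the germinal centre.

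Totals were between 29488783 and 43872686 counts per library. WT/mut replicate 7 stood apart in the number of genes with at least 1 count, 30143 against 17904 to 20264 in the other 8 libraries. All 13 Tfh markers on the list, Cxcr5, Pdcd1, Bcl6 and the CD3 genes among them, were tested and present in every library. The summed level of that list was 10109 to 10846 CPM (counts scaled to a common library total) in WT and 9115 to 9672 CPM in WT/mut, so it was lower in all WT/mut libraries. Of the 13 genes, 2 (Icos and Il21) were below WT in every WT/mut library, as were 369 of all 15521 tested genes. By log2 fold change of WT/mut over WT, 9 of the 13 were negative, Pdcd1 (-0.03) among them. The other 4 were positive, Bcl6 (0.17), Cd4 (0.14), Cd3e (0.04) and Tox2 (0.03), so the sum does not speak for each gene. Markers of other cells were also read. Summed plasma cell markers were at 317 to 566 CPM in WT and 620 to 1587 CPM in WT/mut, and summed red cell markers at 98.5 to 284 and 404 to 872 CPM, both without overlap, with 3 of 9 and 5 of 6 tested markers above WT in every WT/mut library. Over all 15521 tested genes, 324 were above WT in this way. The 3 plasma cell markers were Jchain, Igha and Iglc1. By log2 fold change 7 of the 9 tested plasma cell markers were positive, while Sdc1 (-0.21) and Xbp1 (-0.05) were negative. Summed B cell markers (209 to 389 and 291 to 638 CPM), myeloid markers (66.3 to 199 and 64.4 to 343 CPM), epithelial markers (53.6 to 492 and 37.9 to 282 CPM) and platelet markers (1.84 to 3.43 and 2.14 to 11.2 CPM) overlapped. Of the myeloid genes, S100a9 and S100a8 had 5 and 9 counts over all libraries, while Lyz2 and Csf1r reached 157 and 110 CPM. With edgeR, 0 genes of any marker list were called. The part of any of these in the values below was not tested. In bulk RNA, fewer cells of a type and less RNA per cell cannot be told apart.

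Rgs10 was lower in every WT/mut library. It encodes a small RGS protein that acts on Gi alpha subunits (ENSMUSG00000030844.11, chromosome 7, 128373621 to 128418758, minus strand, GRCm38). The 4 WT libraries read 245, 224, 205 and 229 CPM for replicates 1, 3, 4 and 5. The 5 WT/mut libraries read 146, 137, 146, 144 and 146 CPM for replicates 6 to 10, so the groups were far apart and the WT/mut values lay close together. Group means were 226 ± 16.5 CPM (SD, n = 4) and 144 ± 4.07 CPM (SD, n = 5), a log2 fold change of WT/mut over WT of -0.65 ± 0.08 (SE), or 63.6% of the WT level. In the edgeR fit over 15521 genes, Rgs10 was the 1 member called (Benjamini-Hochberg adjusted p under 0.05) among 9 tested, against 0.122% of all genes called in either direction, 0.0902% called lower and 0.0322% called higher. It was also the 1 member whose ranges did not overlap, against 4.46% of all genes, or 2.38% with WT/mut below WT. Since the members were chosen with this result known, nothing is read from those counts. The call was lost without WT replicate 3 and without each of the 5 WT/mut replicates, where the log2 fold change was between -0.66 and -0.64. Without WT/mut replicate 7 it was -0.64 ± 0.09.

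**Figure D1:**
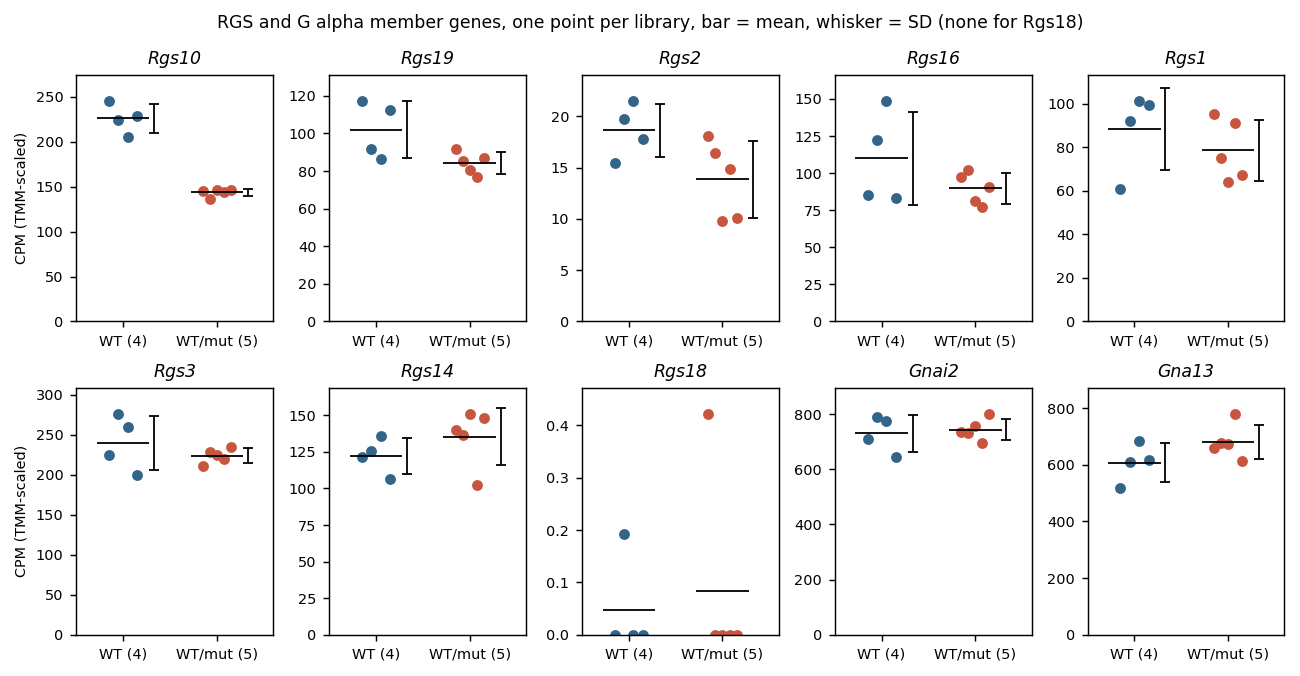
CPM of the 10 member genes in each library, with the group mean as a bar and the SD as a whisker (none for Rgs18); WT libraries are blue and WT/mut libraries red, and each axis starts at 0. Rgs10 separates the groups, with 137 to 146 CPM in WT/mut and 205 to 245 CPM in WT, while the other members overlap.

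Rgs14 belongs to the same subfamily as Rgs10 and carries Ras-binding domains and a GoLoco motif, which binds inactive Gi alpha, besides its RGS domain (chromosome 13, 55369732 to 55384687). It was at 121, 126, 136 and 107 CPM in WT and at 140, 136, 151, 102 and 148 CPM in WT/mut. Both its lowest and its highest value were in WT/mut libraries, and the log2 fold change was 0.14 ± 0.13 (SE), with 0.08 without WT replicate 5 and 0.24 without WT/mut replicate 9. Rgs19, which encodes a Gi-binding RGS protein with a cysteine string (chromosome 2, 181688419 to 181693977), was at 117, 91.8, 86.5 and 113 CPM in WT and at 92.0, 85.5, 80.3, 76.8 and 86.8 CPM in WT/mut. WT replicates 1 and 5 were above all WT/mut libraries, and WT replicates 3 and 4 were among them. Its log2 fold change of -0.28 ± 0.11 was not called.

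The other 5 RGS members encode small proteins built mainly of the RGS domain, apart from Rgs3, which also has longer forms. Rgs2, on chromosome 1 (143999338 to 144004161), encodes a protein that prefers Gq. Its WT values were 15.5, 19.8, 21.5 and 17.8 CPM, and its WT/mut values 18.1, 16.4, 9.82, 14.8 and 10.1 CPM. WT/mut replicates 8 and 10 were the lowest of the 9 libraries, and the log2 fold change of -0.43 ± 0.21 was not called. Rgs16, which limits chemokine-driven migration (chromosome 1, 153740349 to 153745468), was at 85.3, 122, 149 and 83.5 CPM in WT and at 97.5, 102, 81.5, 76.9 and 90.4 CPM in WT/mut. WT replicates 3 and 4 exceeded every other library, while WT replicates 1 and 5 lay within the WT/mut range. Its log2 fold change was -0.29 ± 0.17, and -0.11 without WT replicate 4. An antisense gene, Gm28513, shares 236 bases (10.1%) of the Rgs16 exons, and the library kit does not mark the strand.

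Rgs1, which dampens responses to follicle and egress chemoattractants (chromosome 1, 144242296 to 144249242), was at 60.8, 92.1, 101 and 99.3 CPM in WT and at 95.2, 75.2, 64.3, 90.9 and 67.4 CPM in WT/mut. WT replicate 1 had the lowest value of all libraries. The log2 fold change was -0.17 ± 0.17, with -0.31 without WT replicate 1, -0.09 without WT replicate 4 and -0.11 without WT replicate 5 or WT/mut replicate 8. Rgs3, a negative regulator of Gi and Gq signals (chromosome 4, 62559847 to 62704001), was at 225, 276, 260 and 200 CPM in WT and within 211 to 235 CPM in WT/mut, with a log2 fold change of -0.10 ± 0.10, which was -0.03 without WT replicate 3, -0.05 without WT replicate 4 and -0.18 without WT replicate 5. WT replicates 3 and 4 lay above the WT/mut range and WT replicate 5 below it. Rgs18, known from platelets and their precursors (chromosome 1, 144752683 to 144775435), did not pass the filter on low counts. It had 8 counts in WT replicate 3, 14 in WT/mut replicate 6 and 0 in the other 7 libraries, where a count of 0 allows up to 0.0692 to 0.107 CPM. Platelet markers were low as well, with Itgb3 at most at 8.15 CPM, Pf4 at most at 3.31 CPM and Treml1 at 0 counts in all libraries. The highest Pf4 level and the highest platelet sum (11.2 CPM) were both in WT/mut replicate 6. Much of that sum was Itgb3 (6.68 CPM). WT/mut replicates 9 and 7, with 0 Rgs18 counts, had platelet sums of 9.90 and 8.38 CPM, and the highest Itgb3 level was in replicate 9. In WT replicate 3 the sum, at 3.43 CPM, was the highest of the WT group, with Pf4 at 0.168 CPM. The part of platelets in the Rgs18 counts was not tested.

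Neither alpha subunit was called. Gnai2 (chromosome 9, 107614125 to 107635367) was at 711, 789, 776 and 644 CPM in WT and at 734, 733, 756, 696 and 800 CPM in WT/mut. The groups overlapped almost fully (log2 fold change 0.03 ± 0.09), and the sign turned (-0.0295) without WT replicate 5. Gna13 (chromosome 11, 109362831 to 109401369) was at 519, 611, 684 and 616 CPM in WT and at 658, 677, 673, 778 and 613 CPM in WT/mut. WT/mut replicate 9 was highest and WT replicate 1 lowest, and the log2 fold change was 0.16 ± 0.10, or 0.10 without WT replicate 1. Over the 9 tested members, 6 had a negative and 3 a positive log2 fold change with a median of -0.17, where 49.8% of all tested genes were negative.

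**Figure D2:**
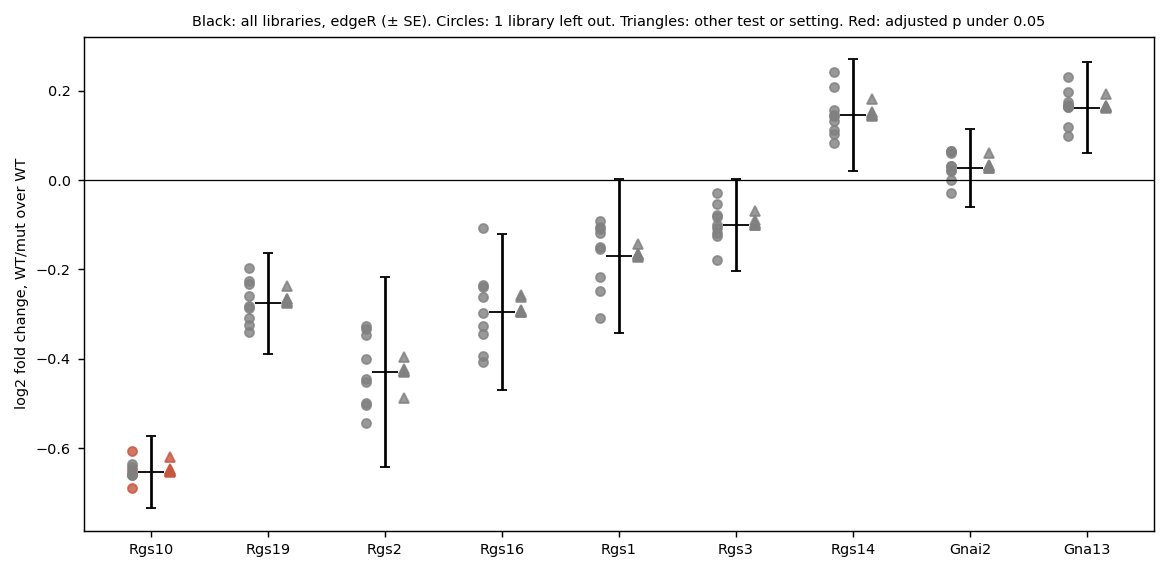
Log2 fold change of WT/mut over WT for the 9 tested members (vertical axis), with all libraries (black bar, whisker for the SE), with 1 library left out (circles) and under another test or setting (triangles); red marks an adjusted p under 0.05. Rgs10 lies between -0.69 and -0.61 throughout, although 6 of the 9 circles are not called, and Gnai2 lies on both sides of 0.

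Promoter windows were at hand for 6 of the 10 members, 9 windows in all, each with 250 bases before and 50 after a RefSeq start (GRCm38.p6, 300 bases). Those of 3 members are shown, that of Rgs10 because it was the member called, and those of Rgs2 and Rgs16 because their log2 fold changes were the next most negative and they hold the SMAD box, the short element bound by the transcription factors of the TGF-beta pathway. The letters run from 5′ to 3′ along the gene's strand, and capitals mark the SMAD box CAGAC or its reverse complement GTCTG.
Rgs10, chr7:128418123-128418422, minus strand: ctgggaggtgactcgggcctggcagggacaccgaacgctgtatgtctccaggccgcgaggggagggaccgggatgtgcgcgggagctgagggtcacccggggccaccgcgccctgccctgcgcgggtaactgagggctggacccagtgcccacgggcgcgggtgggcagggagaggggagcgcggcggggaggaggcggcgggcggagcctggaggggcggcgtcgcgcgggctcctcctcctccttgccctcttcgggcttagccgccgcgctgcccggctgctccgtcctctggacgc
Rgs2, chr1:144004100-144004399, minus strand: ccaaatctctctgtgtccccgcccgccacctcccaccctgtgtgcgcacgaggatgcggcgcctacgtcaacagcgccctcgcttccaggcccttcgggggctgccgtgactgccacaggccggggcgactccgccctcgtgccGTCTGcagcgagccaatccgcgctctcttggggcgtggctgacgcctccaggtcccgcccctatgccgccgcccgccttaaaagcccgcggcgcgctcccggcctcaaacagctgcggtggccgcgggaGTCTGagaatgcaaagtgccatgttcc
Rgs16, chr1:153740103-153740402, plus strand: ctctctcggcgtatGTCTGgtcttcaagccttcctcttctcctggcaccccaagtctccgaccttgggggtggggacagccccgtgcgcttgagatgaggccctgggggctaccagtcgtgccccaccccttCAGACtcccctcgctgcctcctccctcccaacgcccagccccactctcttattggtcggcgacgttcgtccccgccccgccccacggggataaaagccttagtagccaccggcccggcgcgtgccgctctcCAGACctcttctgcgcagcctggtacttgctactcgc

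The Rgs10 window held 0 SMAD boxes, that of Rgs2 held 2 and that of Rgs16 held 3. A SMAD box was found in 49.6% of all 32851 windows, so its presence is common. Since the Rgs2 and Rgs16 windows were shown partly for holding the box, nothing is read from its presence there. The search, on both strands, also covered the SMAD palindrome GTCTAGAC (0.213% of all windows), the AP-1 site TGANTCA (7.81%), the cAMP response element TGACGTCA (1.79%), the EGR site GCGTGGGCG (0.612%), the NFAT core TGGAAA (21.4%), the TATA box TATAAA (13.6%) and the E-box CACGTG (7.15%). The SMAD palindrome holds no SMAD box by its letters, and the other motifs were counted without regard to overlap. None of these 7 was in the Rgs10, Rgs2 or Rgs16 window. Elsewhere among the members, both Rgs3 windows held 1 TATA box each, the second also 1 SMAD box, the middle one of 3 Rgs19 windows held 1 SMAD box and 1 E-box, and the Gna13 window held 1 E-box. The share of G and C differed between the windows, with 76% and 34 CpG pairs for Rgs10, 70% and 33 for Rgs2, 66% and 22 for Rgs16, and 76.7% and 40 for Gna13. The 3 Rgs19 windows had 66.7%, 72.7% and 53.3% with 27, 37 and 4 CpG pairs, and the 2 Rgs3 windows 49.7% and 58.7% with 4 and 9. All windows together had a median of 52.7% and 7 CpG pairs. Such matches describe the letters in these windows and say nothing of binding.

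Levels of different genes were compared per kilobase of exon, and on that scale Rgs10 was the leading RGS gene. Gnai2 had the highest level of the members, at 195 ± 13.1 CPM per kb (SD over 9 libraries), with a range above that of every other member. Rgs10 followed at 105 ± 26.1 CPM per kb and Gna13 at 101 ± 11.0 CPM per kb, with overlapping ranges. In all 4 WT libraries Rgs10 was above Gna13, for example at 143 against 80.8 CPM per kb in WT replicate 1, and in the 5 WT/mut libraries it was below, for example at 84.0 against 121 CPM per kb in WT/mut replicate 9. Then came Rgs16 (42.2 ± 9.93), Rgs19 (41.3 ± 6.20), Rgs14 (30.6 ± 4.04) and Rgs3 (21.4 ± 2.17 CPM per kb), each with a range overlapping that of its neighbour. Within libraries, Rgs16 was above Rgs19 in 4 of the 9, while Rgs19 was above Rgs14 and Rgs14 above Rgs3 in all 9. Rgs1 (11.9 ± 2.30 CPM per kb), Rgs2 (4.41 ± 1.10 CPM per kb) and Rgs18 (0.0335 CPM per kb) were each separate from the gene above. With the length of the longest transcript in place of all exons, Rgs10 was at 205 CPM per kb and Rgs3 at 49.2 CPM per kb, Rgs16 moved from the fourth to the seventh place, and the ranks of Gnai2, Rgs10, Gna13, Rgs1, Rgs2 and Rgs18 stayed. With that length Gna13 was at 105 CPM per kb, and Rgs10 was above it in the WT/mut libraries too. The change of order between Rgs10 and Gna13 thus depends on the length used.

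**Figure D3:**
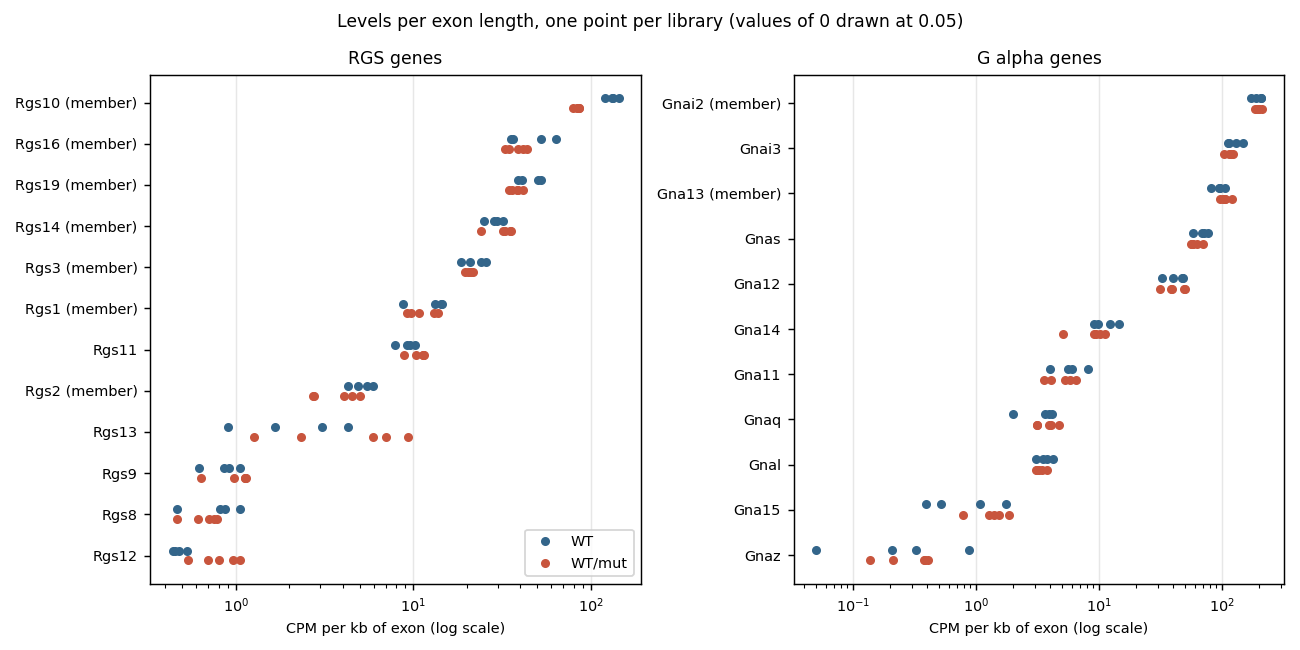
Level per kilobase of exon (horizontal log axis) of RGS genes (left) and G alpha genes (right) with a mean of at least 0.3 CPM per kb, 1 point per library, WT blue and WT/mut red; values of 0 are drawn at 0.05. Rgs10 is the highest RGS gene in both groups, and its red points lie apart from its blue ones.

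Summed per length, the 21 RGS genes came to 308 ± 6.70 CPM per kb in WT (299 to 315) and 247 ± 10.9 CPM per kb in WT/mut (232 to 263). Without Rgs10 the sums overlapped, at 176 ± 14.6 (164 to 195) and 163 ± 10.5 CPM per kb (148 to 178). Rgs10 made up 42.9% ± 3.72 of the RGS sum in WT (38.1% to 46.7%) and 34.1% ± 1.55 in WT/mut (32.4% to 36.1%). The share of Rgs14 was 9.38% ± 0.739 in WT and 12.9% ± 1.61 in WT/mut, without overlap, although its own level overlapped, since a share also moves with the other genes of the sum. Rgs16 (15.2% and 15.5%), Rgs19 (14.9% and 15.3%), Rgs3 (7.22% and 8.43%), Rgs1 (4.13% and 4.59%) and Rgs2 (1.67% and 1.55%) had overlapping shares in WT and WT/mut. The 16 G alpha genes summed to 550 ± 15.02 CPM per kb in WT and 543 ± 16.7 CPM per kb in WT/mut. Gnai2 made up 35.1% ± 2.30 and 36.2% ± 0.979 of that sum, and Gna13 17.2% ± 1.83 and 19.5% ± 2.22.

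**Figure D4:**
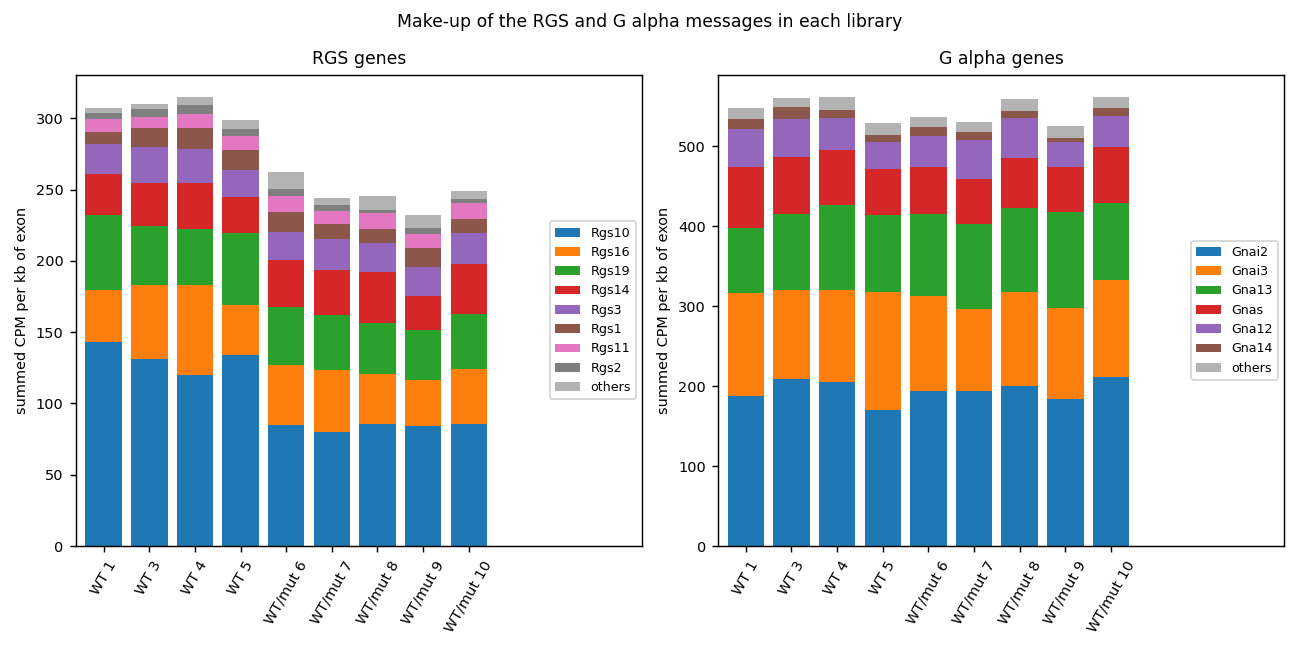
Stacked CPM per kilobase of exon (vertical axis, from 0) of the RGS genes (left) and the G alpha genes (right) in each library. The RGS stack is 299 to 315 in WT and 232 to 263 in WT/mut, with the difference mostly in the Rgs10 block, while the G alpha stacks overlap.

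The spread within each group is given as a description, since a call in this comparison favours genes of small spread. The coefficient of variation of Rgs10 was 2.83% over the WT/mut libraries and 7.32% over the WT libraries, against medians of 9.38% and 15.5% for the 2284 genes within 2-fold of its mean level. Genes of like level thus also spread less in WT/mut. Rgs3 was at 4.08% in WT/mut and 14.2% in WT (medians at its level 9.05% and 15.2%), Rgs19 at 6.99% and 14.8% (10.4% and 16.3%), and Rgs16 at 11.7% and 28.6% (10.3% and 16.02%). Rgs2, at 27.1% in WT/mut and 13.9% in WT, and Rgs14, at 14.4% and 10.0%, had the higher value in WT/mut.

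The 5 genes whose profile over the 9 libraries was most like that of Rgs10 were RP23-194H4.3, Clcc1, Cd96, Klhl5 and Tmem2. The measure was the root mean square difference between log2 CPM profiles, each centred on its own mean, which was 0.107, 0.108, 0.119, 0.120 and 0.130, against a median of 0.485 over all 15520 other genes. Profiles of this kind share the libraries and their group difference. Clcc1 was at 104 ± 11.3 CPM in WT and 73.3 ± 6.03 CPM in WT/mut, and Cd96, a receptor of T and NK cells, at 93.4 ± 14.2 and 65.1 ± 2.55 CPM. None of the 5 was called (edgeR adjusted p between 0.0582 and 0.177). When deviations within each group were used instead, the 5 nearest genes were Rsf1, Anapc16, Ostf1, M6pr and Trbc2, with 0 shared.

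Other genes of the pathway were read from lists set by role. Of 107 genes on 9 lists, 83 were tested with edgeR and 0 were called in either direction. At an unadjusted p under 0.05 there were 6 higher and 3 lower, where 12.2% of all genes reached that level, and DESeq2 called 4 higher and 1 lower, where it called 2.82% of all genes it tested. Their median log2 fold change was 0.06, against 0.0015 over all tested genes. Of the 83, 45 had a positive and 38 a negative log2 fold change, where 49.8% of all tested genes were negative. All WT/mut libraries were above WT for 2 of the 83 and below it for 0. Over all 15521 tested genes, 324 were above and 369 below in this way. Among the other RGS genes, 6 of 13 were tested, 5 of them with a positive log2 fold change. Rgs12, the third gene of the Rgs10 and Rgs14 subfamily, was at 3.74 to 4.50 CPM in WT and 4.59 to 9.02 CPM in WT/mut, without overlap (0.78 ± 0.25, edgeR adjusted p = 0.297, DESeq2 adjusted p = 0.0454). Rgs13, a gene of germinal centre B cells, was at 4.10 ± 2.48 CPM in WT and 8.58 ± 5.54 CPM in WT/mut (1.06 ± 0.59, edgeR adjusted p = 0.479). Rgs13 and summed B cell markers were at 15.5 and 413 CPM in WT/mut replicate 6 and 11.6 and 395 CPM in replicate 8. They were at 9.83 and 638 CPM in replicate 9 and 3.86 and 326 CPM in replicate 10. In WT/mut replicate 7 Rgs13 was lower than in replicate 10, with a B cell sum of 291 CPM. WT replicates 1, 3, 4 and 5 had Rgs13 at 1.49, 2.76, 5.06 and 7.09 CPM. Their B cell sums were 209, 292, 389 and 253 CPM. WT replicate 4 thus had a B cell sum near that of WT/mut replicate 8 but less Rgs13. The part of B cells was not tested. Rgs11 was at 38.9 ± 4.21 and 44.8 ± 4.60 CPM (0.21 ± 0.12, edgeR adjusted p = 0.494).

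Among the other alpha subunits, 9 of 14 were tested and 7 had a negative log2 fold change, with a median of -0.13. Gnai3, the second Gi subunit, was at 410 ± 54.1 CPM in WT and 375 ± 24.2 CPM in WT/mut (-0.13 ± 0.10, edgeR adjusted p = 0.609). Gnas, the Gs subunit that activates adenylyl cyclase, had the lowest p of this list (-0.17 ± 0.10, edgeR adjusted p = 0.506). Gna12, the close relative of Gna13, was at 144 ± 24.7 and 142 ± 26.7 CPM (-0.02 ± 0.16, edgeR adjusted p = 0.972). Of the beta and gamma genes 11 of 17 were tested, and Gng2 had the lowest p, at 55.7 ± 8.47 CPM in WT and 81.3 ± 14.4 CPM in WT/mut (0.54 ± 0.16, edgeR adjusted p = 0.260, DESeq2 adjusted p = 0.0411). Gnb1, the most abundant beta gene per length, was at -0.18 ± 0.09 (edgeR adjusted p = 0.443). Of the genes of GoLoco proteins and alpha subunit chaperones, 6 of 7 were tested and 5 were negative, with Gpsm3 at -0.26 ± 0.14 (edgeR adjusted p = 0.472).

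Downstream of the receptors, all 6 genes on the list for the G12 and G13 arm were tested, with Arhgef1, the exchange factor that Gna13 activates in lymphocytes, at 867 ± 103 CPM in WT and 901 ± 76.5 CPM in WT/mut (0.06 ± 0.10, edgeR adjusted p = 0.849). Of 7 receptor kinase and arrestin genes, the abundant Grk6 was at -0.14 ± 0.13 (edgeR adjusted p = 0.674), and Adrbk2, the gene of GRK3, had the lowest p (-1.36 ± 0.58, edgeR adjusted p = 0.386). Of 18 effector genes 14 were tested and 12 were positive, where 7786 of all 15521 tested genes were. Pik3cg, the catalytic subunit of the PI3 kinase that beta-gamma pairs activate, was at 39.2 to 75.7 CPM in WT and 83.1 to 111 CPM in WT/mut, without overlap (0.59 ± 0.18, edgeR adjusted p = 0.273). It was the 1 effector gene above WT in every WT/mut library, where 324 of all 15521 tested genes were. Elmo1, a partner of Dock2 in chemokine-driven movement, was at 348 ± 36.7 and 296 ± 12.1 CPM (-0.23 ± 0.09, edgeR adjusted p = 0.349). Adcy1, an adenylyl cyclase, had 9 counts in the WT group and 335 in the WT/mut group, where replicate 9 had 0 (DESeq2 adjusted p = 0.0134, edgeR adjusted p = 0.266).

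The receptors included those that Gnai2 and Gna13 serve. Of 15 receptors that signal mainly through Gi, 14 were tested. Cxcr5, the follicle receptor also used for the sort, was at 1317 ± 63.3 CPM in WT and 1182 ± 59.4 CPM in WT/mut (-0.16 ± 0.08, edgeR adjusted p = 0.451), and Gpr183, a receptor for oxysterols, at 0.04 ± 0.11 (edgeR adjusted p = 0.915). Ccr9, the gut homing receptor, had the lowest p, at 21.4 ± 2.79 and 33.4 ± 6.76 CPM (0.65 ± 0.18, edgeR adjusted p = 0.246, DESeq2 adjusted p = 0.0314). All 10 receptors on the list for G12 and G13 coupling were tested. S1pr2, the germinal centre confinement receptor, was at 315 ± 33.1 and 306 ± 42.8 CPM (-0.04 ± 0.12, edgeR adjusted p = 0.909). F2rl1, a protease-activated receptor, was at 10.7 ± 1.66 CPM in WT and 6.13 ± 1.46 CPM in WT/mut (-0.81 ± 0.22, edgeR adjusted p = 0.244, DESeq2 adjusted p = 0.0184), and P2ry10, a lysophospholipid receptor, at 0.44 ± 0.18 (edgeR adjusted p = 0.367).

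**Figure D5:**
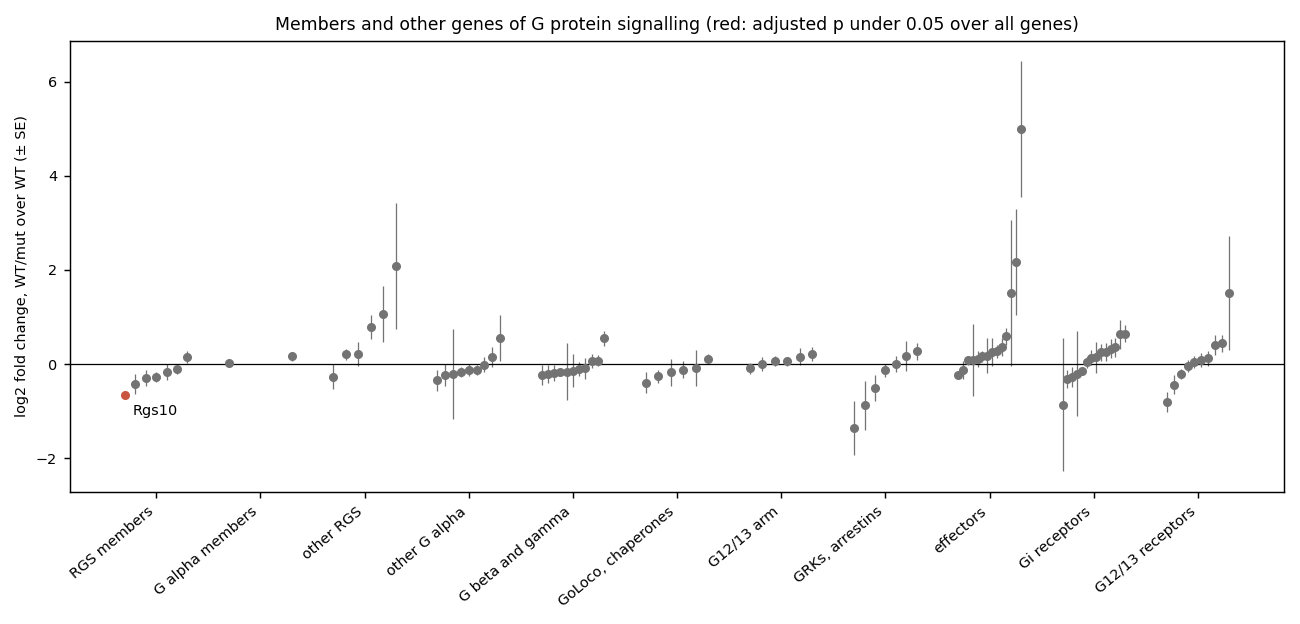
Log2 fold change of WT/mut over WT with its SE (vertical axis) for the tested members and for 83 tested genes on 9 lists of G protein signalling, with genes sorted by value within a list; red marks an adjusted p under 0.05. Rgs10 is the 1 gene marked, and most of the others lie within 1 log2 unit of 0.

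Several RGS genes are induced when lymphocytes are activated, so early response genes were read beside them. Their summed level over 21 genes was 3114 to 4040 CPM in WT and 2260 to 3244 CPM in WT/mut. Of 20 tested, 14 had a negative log2 fold change (median -0.26) and 0 were called with edgeR, with 5 lower and 0 higher at an unadjusted p under 0.05. Over all 15521 tested genes, 49.8% were negative, and 1003 were lower and 883 higher at that p. Egr2 (228 ± 26.9 and 173 ± 15.3 CPM) and Egr1 (289 ± 18.3 and 220 ± 28.3 CPM) had non-overlapping ranges, with log2 fold changes of -0.39 each (edgeR adjusted p = 0.221 and 0.237). These 2 were the tested early response genes below WT in every WT/mut library, as were 2.38% of all tested genes. WT replicate 1, with the highest summed early response level of 4040 CPM, had the lowest Rgs1 and Gna13 and the highest Rgs10 and Rgs19 levels of all 9 libraries, and the lowest Rgs2 level of the WT group. WT/mut replicate 10 was next at 3244 CPM, yet its Rgs10 (146 CPM) and Rgs19 (86.8 CPM) lay among the other WT/mut libraries. Its Rgs1 was at 67.4 CPM, and its Gna13, at 613 CPM, was the lowest of the WT/mut group. The sum weighs abundant genes most, and the listed genes did not move together. In WT replicate 1, Dusp1 (841 CPM) and Junb (707 CPM) were the highest of all 9 libraries. Zfp36 (106 CPM) and Fosb (0.222 CPM) were the lowest there, and Fos (53.4 CPM) and Cd69 (381 CPM) were the lowest of the WT group. The part of early activation in the RGS values was not tested.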

How the data were processed

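The deposited table gives expected counts, estimates that can be fractional, for each gene and library. The submitters' processing notes name cutadapt 2.10, STAR 2.5.3, RSEM 1.3.0, DESeq2 and the mm10 build; the annotation release was not given in the sources used here. Per the labels' protocols, each library was made from 300 pg of RNA with a low-input kit that keeps no strand. In each library 11.1% to 18.3% of values were not whole, and all were rounded. Samples were grouped by title. Groups were compared with edgeR 4.0.16 by its quasi-likelihood test (R 4.3.3, robust, TMM, filterByExpr with minimum count 10 and minimum total 15, 15521 genes), with Benjamini-Hochberg adjustment over all genes and a threshold of 0.05. CPM use TMM-scaled library sizes, and the SE is the absolute log2 fold change over the square root of F. Depth limits only genes with few counts such as Rgs18; floors (3 counts) cover counting error only. All 16 pairs of libraries of the same group differed beyond sampling noise (chi-square per gene 28.0 to 224). Positions and exon lengths are from GENCODE M21 on GRCm38, in which 54079 of the 54146 identifiers were found, and promoters from RefSeq.

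Members, lists, motifs and tests were chosen with earlier results of these data known. Named are all members, up to 4 genes of lowest p and 3 of highest level per length from each pathway list, and the 5 profiles nearest to Rgs10; not every gene the rule allows is named. Alternatives were DESeq2 1.42.0, limma-voom (limma 3.58.1), other size factors, no filter on low counts, a non-robust fit, each library left out, transcript length in place of exon length, and deviations within groups for the profiles.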

Additional observations from a re-analysis of the deposited data

Results flagged for a closer look

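In 9 of 114 groups of 4 or 5 libraries, over the members and the named pathway genes, 1 library lay far from the rest relative to the range of its group, where chance marks about 1 in 20. Among the members, Rgs10 was at 137 CPM in WT/mut replicate 7, against 144 to 146 CPM in the other 4, which is still below every WT library. Rgs18 was at 0.192 CPM in WT replicate 3 and at 0.421 CPM in WT/mut replicate 6, against 0 in the other libraries of each group. With only 1 library above 0 in a group the mark was certain, so the rate of 1 in 20 does not apply to Rgs18. Low values stood out for Gpsm3 in WT/mut replicate 9 (84.2 CPM, others 98.5 to 103), Arhgef1 in WT replicate 5 (715 CPM, others 905 to 940), Ccr9 in WT/mut replicate 10 (21.6 CPM, others 34.4 to 38.5) and Cxcr6 in WT/mut replicate 9 (188 CPM, others 262 to 274). High values stood out for Gng10 in WT replicate 5 (104 CPM, others 71.2 to 76.2) and F2rl1 in WT/mut replicate 6 (8.69 CPM, others 5.05 to 5.84).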

How the results depend on the processing

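Rgs10 kept a negative log2 fold change in all 15 alternatives (-0.69 to -0.61) and was called in 9 of them, including DESeq2, limma-voom and all scalings. With 1 library left out, 0 to 1 members, 2 to 23 genes overall and 0 pathway genes were called, and Rgs10 was called in 3 of these 9 fits, those without WT replicates 1, 4 or 5. The cause of the lost calls was not tested. DESeq2 called 495 genes and 5 pathway genes, against 19 and 0 with edgeR. Against 5 genes called higher and 14 lower, there were 269 and 226 with DESeq2, 8 and 14 with scaling by library size alone, and 12 and 11 without WT replicate 4. Scaling moved the median log2 fold change of all genes from 0.0015 to 0.035 at most. Gnai2 turned to -0.0295 without WT replicate 5 (range with 1 library left out -0.0295 to 0.0656), and the other 8 tested members kept their sign in all 15 alternatives. With the longest transcript as the length, 4 members changed rank, and the WT share of Rgs10 in the RGS sum was 49.8%, of Rgs16 9.12%, of Rgs3 9.91%, of Gnai2 in the G alpha sum 40.1% and of Gna13 12.01%. The profiles nearest to Rgs10 shared 0 of 5 genes under deviations within groups. No paired analysis was possible because the groups share no replicate number.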

Other observations

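Of the RGS genes, 5 lie in a row on the minus strand of chromosome 1, in the order Rgs2, Rgs13, Rgs1, Rgs21 and Rgs18, with gaps of 134.5 kb, 64.9 kb, 267 kb and 185 kb between neighbours. Their levels per length differed widely. Rgs1 was at 11.9 ± 2.30 CPM per kb over the 9 libraries, Rgs2 at 4.41 ± 1.10 and Rgs13 at 3.98 ± 2.91, while Rgs18 was at 0.0335 CPM per kb and Rgs21 had 0 counts in every library. Rgs16 and Rgs8 also neighbour each other, 40.03 kb apart on the plus strand of chromosome 1, at 42.2 ± 9.93 and 0.725 ± 0.189 CPM per kb. Rgs4 had 76 counts over the WT/mut libraries, nearly all in replicates 7 and 9 (0.659 and 1.82 CPM), and 0 in WT.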
